A study of Mus musculus with 8 samples.

Results

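Connexin 47 (Cx47) deficiency in untreated experimental autoimmune encephalomyelitis (EAE) was examined by setting the Cx47-deficient EAE array against the wild-type (WT) EAE array, 2 of the 8 arrays of the series. Both arrays were chosen by their titles, and 23951 genes with a probe well above background on at least 1 of them were compared. The series profiled RNA on single-colour Agilent arrays, with 1 array a group, from Cx47-deficient and WT mice that were naive, had EAE, had EAE and received iguratimod (an anti-inflammatory drug), or were in the chronic phase of EAE. All mice carried the strain label C57Bl/6J, all samples the tissue label spinal cord, and each source was given as astrocytes. The Cx47-deficient mice are titled icKO, and the series title describes a conditional knockout restricted to oligodendroglia. The WT mice are titled FL or F/F. Neither label of the EAE arrays compared here names a drug or a phase of disease. The Cre driver, any inducing agent, the deleted exon, the age of the mice and the way in which cells were isolated are not given in the sources used here, nor whether an array carried RNA of 1 animal or a pool. With 1 array a genotype there is no replicate, so differences are described across genes without a test.

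Connexins form the channels of gap junctions. Cx47 is made by oligodendrocytes and pairs with the astrocyte connexin Gja1, while the oligodendrocyte connexin Gjb1 pairs with the astrocyte connexin Gjb6. These channels join both cell types into a network that passes ions and small metabolites. EAE is induced by immunisation against myelin, and T cells and monocytes that enter the nervous system drive inflammation, demyelination and astrocyte reactivity.

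The array read each gene with 60-base probes. The first 30 bases of 3 probes are shown because their genes carry the results below: the macrophage lectin and the B cell chemokine that were among the most raised immune genes, and a receptor subunit of cerebellar granule cells. They are written 5′ to 3′ in lower case, with the position of the whole probe on the mm9 build.
Chil3 (chr3:105950485-105950544, minus strand): tgaacatcttttgcttcctgtaaaaccacc
Cxcl13 (chr5:96389861-96389920, plus strand): gatttattgtcttgcattaaaaccagtaac
Gabra6 (chr11:42120087-42120146, minus strand): tgcatatgtacatagctttagttatgctgc

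Levels are log2 intensities relative to the 75th percentile of the array, so 0 is that percentile, and a difference is Cx47-deficient minus WT. Of the 59305 spots that were not controls, 65.5% were well above background on the Cx47-deficient EAE array and 59.9% on the WT EAE array, with 62.6% to 65.8% on the other Cx47-deficient and 59.7% to 61.1% on the other WT arrays of the same slide. On both EAE arrays 0 spots were saturated, and both EAE arrays were on slide 1 and scanned in 1 session. Probes printed at least 5 times had a median SD between spots of 0.041 on the Cx47-deficient and 0.045 on the WT array, and the scanner's own error of a difference was about 0.20 for bright probes. Both figures cover measurement within an array and not the spread between mice. The chronic arrays were on slide 2, and the Y-linked gene Eif2s3y stood at 0.25 on the Cx47-deficient and -0.29 on the WT EAE array, while both chronic arrays were at -7.76 and -7.79 and not well above background.

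Of the 23951 genes, 1571 (6.56%) were 2-fold or more higher on the Cx47-deficient EAE array and 183 (0.764%) were 2-fold or more lower. The median difference over all genes was -0.03, with quartiles at -0.23 and 0.27, and 46.4% of genes lay above 0. At 4-fold or more, 242 genes were higher and 7 lower. A dim signal on the WT array, giving only a lower bound, lay behind 549 of the 1571 higher genes, and 63 of the 183 lower genes were dim on the Cx47-deficient array. Dim genes carried most of the imbalance. In the lowest quartile of mean signal 934 were higher and 102 lower, with a median difference of 0.25, and in the highest quartile 52 were higher and 12 lower, with a median of -0.17. The larger share of spots above background on the Cx47-deficient array went with the same direction, and its part in these counts was not tested. The balance moved with the processing: 89.6% of the 2-fold genes were higher here, 65.1% under quantile normalization and 51.2% under median centring, as the plot of counts by signal and processing shows. Median centring moved the median of all genes by -0.34, so a positive difference smaller than that turns negative under it.

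**Figure D1:**
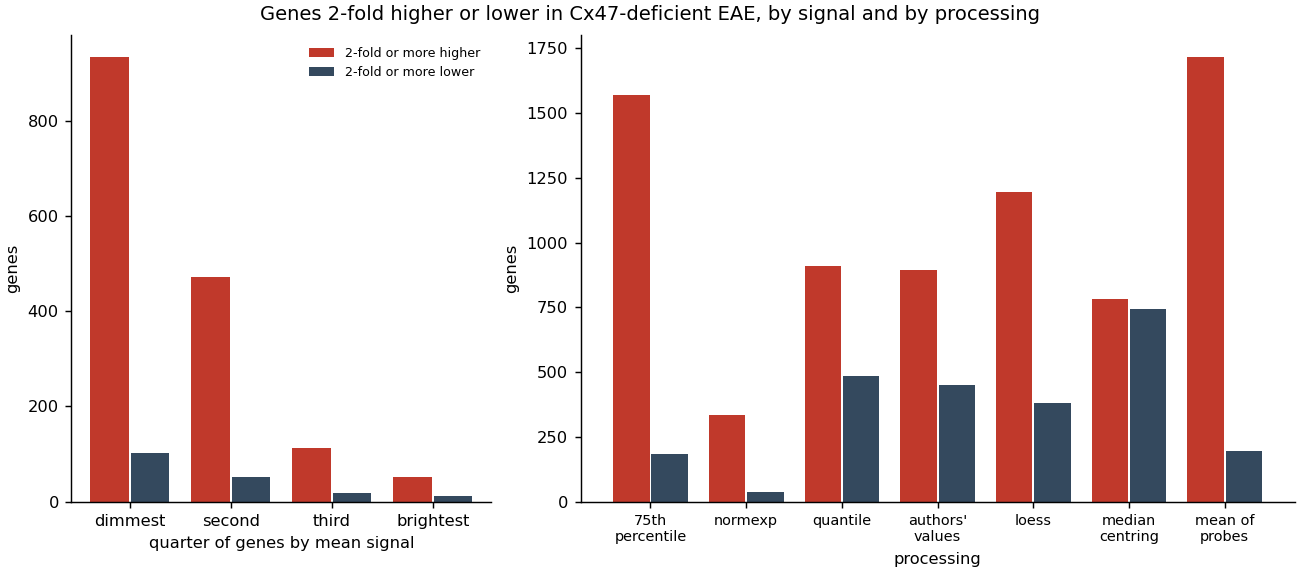
Genes 2-fold or more higher (red) or lower (dark) on the Cx47-deficient EAE array than on the WT EAE array; the left panel counts them by quartile of mean signal, the right panel by processing, with the number of genes on both vertical axes. Higher genes numbered 934 in the dimmest and 52 in the brightest quartile, and the excess of higher over lower genes nearly closed under median centring (783 and 745).

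Other connexins of the glial network were close on both EAE arrays. Gja1 stood at 0.64 on the Cx47-deficient and 0.53 on the WT array (0.11), and its 4 kept probes ranged from -0.08 to 0.74. Gjb6 stood at 2.99 and 3.05 in the same order (-0.06), a sign that turned after loess (0.09), under quantile normalization (0.07) and with the values the authors deposited (0.07). Gjb1, the other oligodendrocyte connexin, stood at 2.39 on the Cx47-deficient and 2.56 on the WT array (-0.18).

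**Figure D2:**
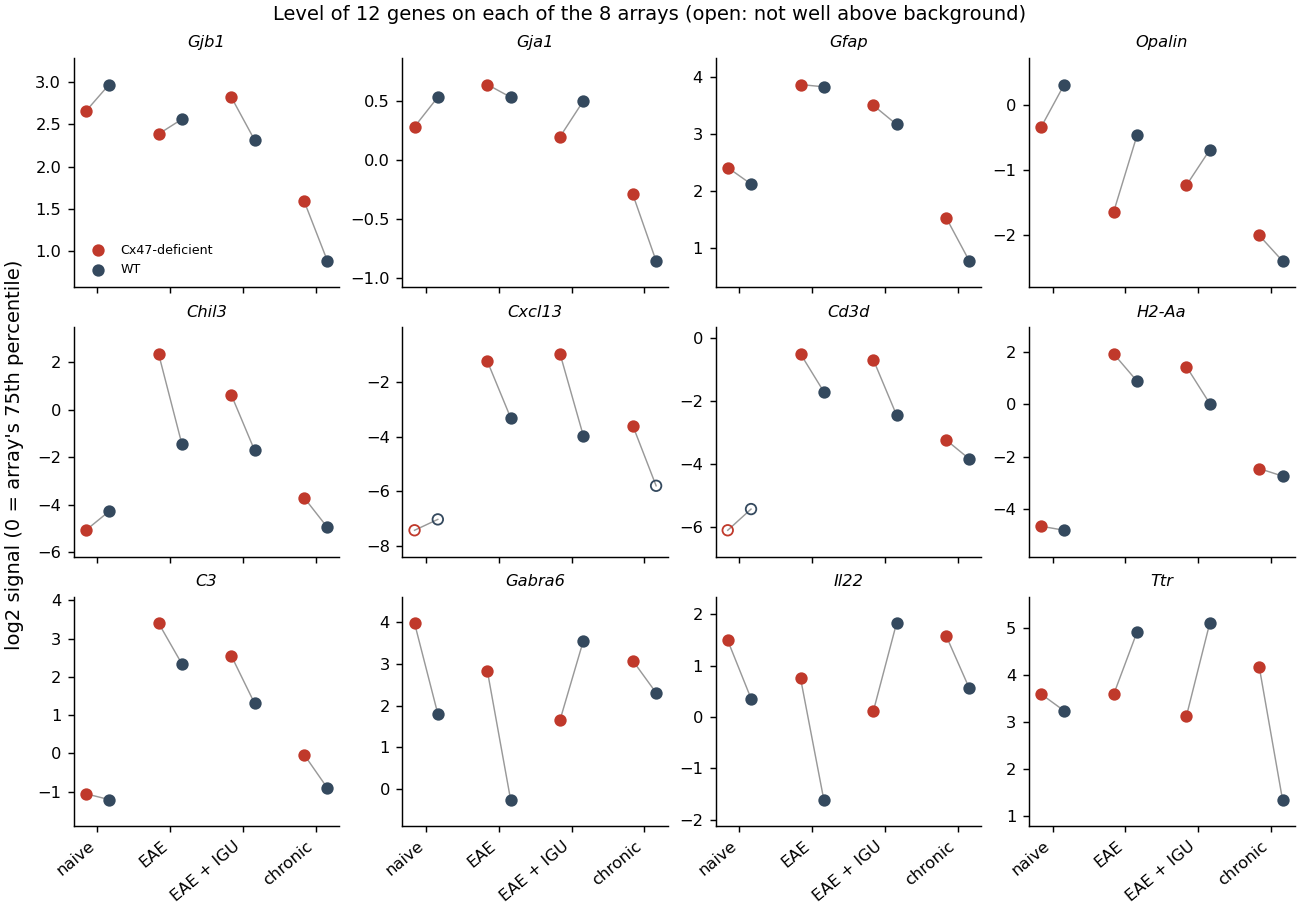
Level (log2 signal, 0 is the 75th percentile of the array) of 12 genes on each of the 8 arrays, with Cx47-deficient (red) left of WT (dark) in each condition and open points not well above background. Chil3 is higher in EAE (2.34 and -1.45) and not in naive mice (-5.07 and -4.27), and Gabra6 is higher in the naive and EAE pairs and lower in the iguratimod pair.

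The astrocyte label was checked against 22 identity genes, of which all 22 were well above background on both EAE arrays. Their median difference was -0.20, with 7 of 22 above 0 and none past 2-fold in either direction. The water channel Aqp4 was the highest, at 3.0 on the Cx47-deficient and 2.54 on the WT array (0.46), and the GABA transporter Slc6a11 the lowest, at 0.32 and 0.99 (-0.67). Gfap, the intermediate filament that reactive astrocytes accumulate, was at 3.87 on the Cx47-deficient and 3.83 on the WT EAE array, above the naive arrays at 2.41 and 2.12. The difference between the EAE arrays was 0.04.

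RNA of other cells was present on both EAE arrays. All 20 myelin and oligodendrocyte genes, all 10 precursor genes, all 11 homeostatic microglia genes and all 16 general neuronal genes were well above background on both. So were all 12 striatal genes and all 18 cerebellar genes, beside 28 of 29 Hox genes on at least 1 array. The forebrain transcription factor Tbr1 was measured on both arrays (2.61 on the Cx47-deficient and 3.28 on the WT array), although the tissue label was spinal cord. In bulk RNA, fewer cells of a type and less RNA per cell cannot be told apart.

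Immune genes were higher on balance. The 15 immune lists hold 220 genes, of which 198 were well above background on at least 1 EAE array. Of these, 168 (84.8%) were above 0, against 46.4% of all genes, with a median of 0.47 against -0.03. By 2-fold or more, 31 of the 198 (15.7%) were higher and 0 lower, against 6.56% and 0.764% of all genes. Of the 31, the number still 2-fold higher was 14 under normexp background correction, 21 under quantile normalization and 28 after loess. It was 21 with the authors' values and 12 under median centring. All 31 stayed above 0 in these 5 settings, which their choice at 2-fold made likely. Of all 198, 164 were above 0 under normexp, 162 under quantile normalization, 171 after loess and 163 with the authors' values. Under median centring 129 of the 198 were above 0, with a median of 0.13 against -0.36 for all genes. By 2-fold, 12 were then higher and 4 lower, against 783 and 745 of all 23951 genes.

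**Figure D3:**
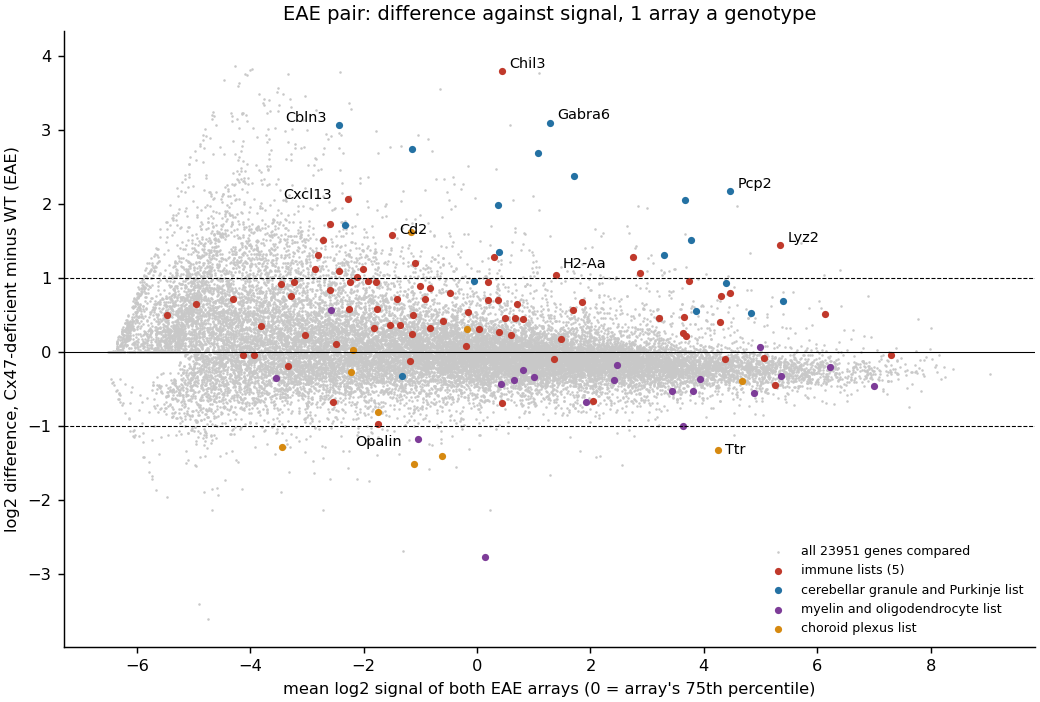
Each grey point is 1 of 23951 genes, with the mean log2 signal of both EAE arrays on the horizontal and the log2 difference, Cx47-deficient minus WT, on the vertical axis; dashed lines mark 2-fold, and colours mark 5 immune lists, the cerebellar, the myelin and the choroid plexus list. Chil3 (3.79) and Gabra6 (3.09) lie above most genes of like signal, and the spread widens towards dim genes on the left.

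Among myeloid genes, Chil3, a chitinase-like lectin secreted by macrophages and neutrophils, had the largest difference of any named gene measured on both arrays. It was at 2.34 on the Cx47-deficient and -1.45 on the WT EAE array, or 13.8-fold higher (3.79, scanner error 0.21). Naive levels were -5.07 and -4.27, and with iguratimod they were 0.61 and -1.72, so all 4 of these EAE arrays exceeded both naive arrays, while in chronic EAE the levels were -3.70 and -4.95. The lysozyme gene Lyz2 was at 6.07 on the Cx47-deficient and 4.63 on the WT array (1.44), and its 2 probes gave 1.44 and 1.66. Cybb, the catalytic subunit of the phagocyte oxidase, was at -1.72 and -3.45 in the same order (1.73), and the chemokine receptor Ccr2 of inflammatory monocytes at -2.30 and -3.41 (1.12, or 0.61 under normexp). The 17 monocyte and macrophage genes had a median of 0.57. Of these, 4 (23.5%) were 2-fold higher and 0 lower, against 6.56% and 0.764% of all genes. Other members were lower: Arg1, an arginase of alternatively activated macrophages, was at -2.23 on the Cx47-deficient and -1.26 on the WT array (-0.97), and the nitric oxide synthase Nos2 at -2.88 and -2.20 (-0.68).

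Homeostatic and disease-associated genes of microglia were read as separate lists. For the 11 homeostatic genes the median was 0.10 and none passed 2-fold, Tmem119 differing by 0.02 and the purinergic receptor P2ry12 by 0.15. Fcrls was the lowest, at -0.64 on the Cx47-deficient and -0.01 on the WT array. The 16 genes of disease-associated microglia had a median of 0.43, with 13 above 0 and the lowest at -0.52. By 2-fold or more, 5 (31.2%) were higher and 0 lower, against 6.56% and 0.764% of all genes. Under median centring the medians were 0.09 for this list, -0.24 for the homeostatic list and -0.36 for all genes. Monocyte and macrophage genes had a median of 0.57, and which cells gave these signals was not tested. Gpnmb, a glycoprotein of lipid-laden phagocytes, was at -0.17 on the Cx47-deficient and -1.81 on the WT array (1.64), the integrin Itgax at -0.01 and -1.18 (1.17), the lectin receptor Clec7a at 2.24 and 1.18 (1.06), and the protease inhibitor Cst7 at 1.04 and -0.20 (1.24). The fifth, the lipase gene Lpl, was at 0.03 and -1.54 (1.57), but it also differed by 1.02 in the naive pair and its 6 probes ranged from 0.54 to 3.13. Neutrophil genes had a median of 0.81 over 13 members, of which the granule genes Mpo (1.5) and Ngp (1.22) were 2-fold higher, or 15.4% against 6.56% of all genes; both were under 2-fold with normexp, at 0.72 and 0.56. The protease genes Mmp9 (-0.56) and Elane (-0.40) lay below 0.

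T and NK cell genes had a median of 0.86 over 18 members. By 2-fold or more, 5 (27.8%) were higher and 0 lower, against 6.56% and 0.764% of all genes. Cd2, an adhesion molecule of T cells, was at -0.71 on the Cx47-deficient and -2.29 on the WT array (1.58), and the costimulatory receptor Icos at -1.96 and -3.48 (1.52). The T cell receptor subunits Cd3d and Cd3g differed by 1.20 and 1.31, Il2rb, a chain of the interleukin 2 receptor, by 1.09, and Cd3e by 0.33. On the naive arrays none of Cd2, Icos, Cd3d, Cd3g and Il2rb was well above background. Under normexp, Cd2 stayed past 2-fold (1.22), while Icos (0.78), Cd3g (0.69), Il2rb (0.67) and Cd3d (0.95) did not. The coreceptor Cd4 was at 0.10 on the Cx47-deficient and 0.79 on the WT array (-0.69), and Prf1, the perforin of cytotoxic cells, differed by -0.19. Cd8a and Ctla4 were not well above background on either EAE array.

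The median of the B and plasma cell list was 0.88 over 8 members, all 8 above 0. Ms4a1, which encodes CD20, was at -3.56 on the Cx47-deficient and -4.84 on the WT array (1.28), but it also differed by 0.70 in the naive pair and by -1.30 with iguratimod. The immunoglobulin joining chain Jchain was at -2.98 and -4.08 (1.09), and differed by -0.34 in the naive pair and 1.14 with iguratimod. Both rest on weak signals and were under 2-fold with normexp, at 0.40 and 0.44. Of the T helper genes, 7 of 13 were measured. Ifng differed by 0.39, and the transcription factors Tbx21 and Gata3 by -0.16 and -0.54. Il22, a cytokine of T helper and innate lymphoid cells, was at 0.76 on the Cx47-deficient and -1.61 on the WT array (2.37). It was also at 1.49 on the Cx47-deficient and 0.36 on the WT naive array, and with iguratimod the levels were 0.11 and 1.82. Its other probe was dim on both EAE arrays.

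Chemokines, the ligands that draw these cells, had a median of 0.39 over 20 members. Of these, 4 (20%) were 2-fold higher and 0 lower, against 6.56% and 0.764% of all genes. Cxcl13, which attracts B cells to lymphoid aggregates, was at -1.24 on the Cx47-deficient and -3.30 on the WT EAE array, 4.18-fold higher (2.06, or 1.22 under normexp). It was not well above background on either naive array, and with iguratimod the levels were -0.97 and -3.97. Ccl5, which draws T cells and monocytes, was at 3.38 and 2.11 (1.28), the macrophage inflammatory protein gene Ccl3 at -1.46 and -2.58 (1.12), and Ccl19, which guides naive lymphocytes through Ccr7, at -1.60 and -2.62 (1.02). Under 2-fold stood the interferon-induced ligands Cxcl9 (0.95) and Cxcl10 (0.68), and Ccl2, the ligand of Ccr2, at 0.46. Cxcl12 and Cx3cl1, which the resting nervous system makes, were lower by less than 2-fold, at -0.67 and -0.45.

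Antigen presentation genes differed in a narrow range. The 10 class II genes had a median of 0.73, 9 of them above 0. H2-Aa was at 1.91 on the Cx47-deficient and 0.88 on the WT array (1.03), the invariant chain Cd74 at 4.21 and 3.26 (0.95), and H2-Ab1 at 4.85 and 4.06 (0.80), while their transactivator Ciita was at -1.24 and -1.12 (-0.12). For H2-Aa the naive levels were -4.64 and -4.79. The 13 genes of class I presentation and the immunoproteasome had a median of 0.53, with H2-K1 at 0.62 and B2m at 0.25. H2-Q4 was the only 1 past 2-fold, at 6.45 on the Cx47-deficient and 4.98 on the WT array (1.47). Unlike H2-Aa it was no lower in naive mice, at 6.90 and 6.06. Genes of the H2-Q family are near-identical copies that a probe may not tell apart.

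Complement genes had a median of 0.52 over 16 members, 15 above 0. Of the 16, 2 (12.5%) were 2-fold higher, against 6.56% of all genes. The central component C3 was at 3.40 on the Cx47-deficient and 2.34 on the WT array (1.06, its other probe 0.83), and factor B of the alternative pathway, Cfb, at 0.93 and -0.35 (1.28). The receptor C3ar1 (0.95) and the 3 C1q chains (0.40 to 0.47) were under 2-fold. Interferon-stimulated genes had a median of 0.40 over 18 members and the interferon-gamma inducible GTPases 0.52 over 10, with 0 genes of either list past 2-fold. The shift was shared by nearly all of them: 17 of 18 and 10 of 10 were above 0, against 46.4% of all genes. Gbp5 had the largest value, at 0.80 on the Cx47-deficient and -0.09 on the WT array (0.89), with its other probe at 0.26. It also differed by 0.88 in the naive pair, where its levels were 1.43 and 0.55, and by -0.15 with iguratimod.

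Cytokine genes themselves were mostly dim and differed little. Tnf was at -2.51 on the Cx47-deficient and -2.17 on the WT array (-0.34), with its other probe at 0.69. Il1b was at -1.45 and -1.52 (0.07), while Ltb, a lymphocyte cytokine, was at -0.14 and -0.96 (0.82). Il6 was at -4.99 on the Cx47-deficient array and dim on the WT array, which allows at least 1.20-fold here but a log2 difference of 0.0 under normexp. Of its 2 probes, 1 was kept. All 12 genes of the NF-kB list were above 0, with a median of 0.43 and Birc3 alone past 2-fold (1.32, or 0.31 under normexp).

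Reactive astrocyte genes were higher on balance although Gfap was level. The 13 pan-reactive genes had a median of 0.54, with 12 above 0. Lcn2, a siderophore-binding lipocalin secreted by reactive astrocytes and also by neutrophils, was at 2.96 on the Cx47-deficient and 1.4 on the WT array (1.57), with naive levels of -3.68 and -3.20. The metalloreductase gene Steap4 was dim on the WT array and at least 3.73-fold higher, but its log2 difference was 0.62 under normexp. Vimentin (Vim) differed by 0.70, but also by 1.65 in the naive pair and by -0.49 with iguratimod. Cd44 differed by 0.74, while the heat shock gene Hspb1 was at 2.61 and 3.16 (-0.55). The 11 genes of the A1 set, a profile that microglial cytokines induce in astrocytes, had a median of 0.55 with 10 above 0 and none past 2-fold, the highest being Iigp1 (0.77) and Serping1 (0.71). Of the A2 set, another reactive profile, 10 genes were measured, with a median of 0.28 and 7 above 0. Of the 10, 2 (20%) were 2-fold higher, against 6.56% of all genes. They were Ptx3, dim on the WT array and at least 3.24-fold higher, and B3gnt5 (1.52). Under normexp they differed by 0.40 and 0.83, and B3gnt5 also differed by 1.07 in the naive pair. Several A1 genes are interferon or class I genes counted above, and neutrophil, monocyte and lymphocyte genes moved the same way. Their part in the astrocyte lists was not tested.

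**Figure D4:**
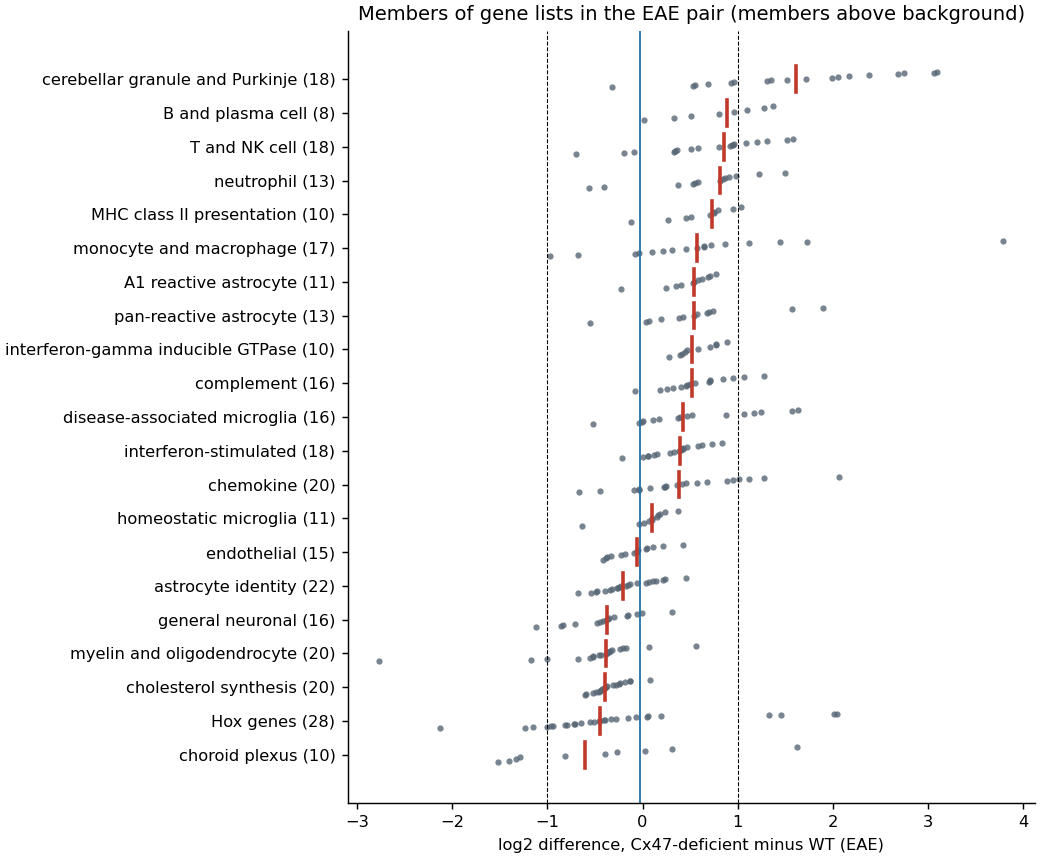
Log2 difference, Cx47-deficient minus WT, of the members of 21 gene lists that were above background on at least 1 EAE array (grey points, number in brackets), with the list median (red bar), the median of all genes (blue line, -0.03) and 2-fold (dashed lines). Immune and reactive lists lie right of the blue line, with medians from 0.39 to 0.88 outside homeostatic microglia (0.10), and myelin (-0.38), cholesterol synthesis (-0.39) and choroid plexus (-0.60) lie left of it.

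Regulatory sequence was read for the 2-fold higher immune genes, because their lists moved together. Of the 31 genes, 22 had an upstream sequence in RefSeq's promoter table (GRCm38.p6), read here over the 250 bases before the start, and motifs were sought on both strands. The core motif of interferon regulatory factors, AANNGAAA, was found in 11 of the 22, against 21.6% of the 27025 promoters of all genes and 23.6% of the 500 promoters of all genes 2-fold higher. The same core preceded by GA was found in 2 of 22, against 3.04% of all promoters. An NF-kB core, GGANNTTCC, was found in 1 of 22, against 3.56%, and the interferon-gamma activated motif, TTCNNNGAA, in 2 of 22, against 7.18%. The upstream stretch of Cybb is shown because it held the most matches of the first motif, 5, which are in capitals. They begin 168, 124, 66, 33 and 27 bases before the start, the last pair overlapping. The core preceded by GA was matched at 168, 124 and 29 bases before the start. Neither the NF-kB core nor the interferon-gamma activated motif was found there. The stretch lies at chrX:9469325-9469574 on the minus strand and is written 5′ to 3′. A match describes letters and not binding.
Cybb: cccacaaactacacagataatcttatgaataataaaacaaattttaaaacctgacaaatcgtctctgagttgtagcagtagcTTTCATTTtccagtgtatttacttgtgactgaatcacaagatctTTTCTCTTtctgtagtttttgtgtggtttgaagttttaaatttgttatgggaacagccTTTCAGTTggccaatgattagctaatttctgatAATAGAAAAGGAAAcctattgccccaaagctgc

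Oligodendrocyte genes were lower. The 20 myelin and oligodendrocyte genes had a median of -0.38, with 18 below 0. Opalin, a membrane protein of mature myelinating cells, was at -1.64 on the Cx47-deficient and -0.46 on the WT array (-1.17), and its 2 probes gave -1.67 and -1.17. Mobp, a structural myelin protein, was at 3.13 and 4.14 (-1.01), with a second probe at -0.43. The major myelin genes Mbp (-0.32) and Mag (-0.52) and the lineage factor Sox10 (-0.68) were lower by less than 2-fold, but the other probe of Mag was higher (0.88). Myrf, the factor that drives myelin genes, was at -2.30 and -2.86 (0.57). Cholesterol synthesis, which supplies myelin with lipid, had a median of -0.39 over 20 genes, 19 of them below 0 and none past 2-fold, from Srebf2 (-0.61) to Lss (0.07). These sizes stand beside a general shift: the brightest quartile of genes had a median of -0.17, and after loess, which removes the dependence on signal, the medians were -0.30 for myelin and -0.24 for cholesterol synthesis. Opalin and Mobp were also lower in the naive pair, by -0.66 and -0.80.

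Genes of cerebellar neurons were the most raised list of the 47. Their median over 18 members was 1.61 (1.67 after loess). Of the 18, 12 (66.7%) were 2-fold higher and 0 lower, against 6.56% and 0.764% of all genes. Gabra6, a GABA receptor subunit of granule cells, was at 2.84 on the Cx47-deficient and -0.25 on the WT EAE array, 8.53-fold higher (3.09). The granule cell genes Cbln3 (-0.90 and -3.96, a difference of 3.06 with its other probe at 3.27) and Neurod1 (2.91 and 0.52, 2.38) and the Purkinje cell gene Pcp2 (5.55 and 3.38, 2.17) followed the same order. En2, a transcription factor of the midbrain and hindbrain, was at 2.42 on the Cx47-deficient and -0.26 on the WT array (2.68). Unlike the 5 T cell genes above and Cxcl13, these were well above background in naive mice: Gabra6 was at 3.97 on the Cx47-deficient and 1.80 on the WT naive array. With iguratimod the order was turned, at 1.66 and 3.55.

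The immune and the cerebellar genes differed in the other pairs, which share no array with the EAE pair. Of the 31 immune genes 2-fold higher in EAE, 3 were 2-fold higher in the naive pair, where 19 were measured, against 7.74% of all genes compared. In the iguratimod pair 20 of the 31 (64.5%) were 2-fold higher, against 2.52% of all, and in the chronic pair 4 were, against 1.52%. Of the 12 cerebellar genes, 11 were 2-fold higher in the naive pair and all 12 were 2-fold lower in the iguratimod pair. Of all 1571 higher genes, 978 were 2-fold higher in the naive pair too, which is 62.3% of them and 52.7% of the 1855 such genes, against 7.74% of all genes compared. In the iguratimod pair, 308 of the 1571 were 2-fold lower, which is 19.6% of them and 61.5% of the 501 such genes, against 2.09% of all, and 126 (8.02%) were 2-fold higher, against 2.52%. Both 2-fold higher in the naive and 2-fold lower in the iguratimod pair were 229 (14.6%) of the 1571, against 1.11% of all genes. Of the 183 lower genes, 32 (17.5%) were 2-fold lower in the naive pair, against 2.58% of all genes.

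**Figure D5:**
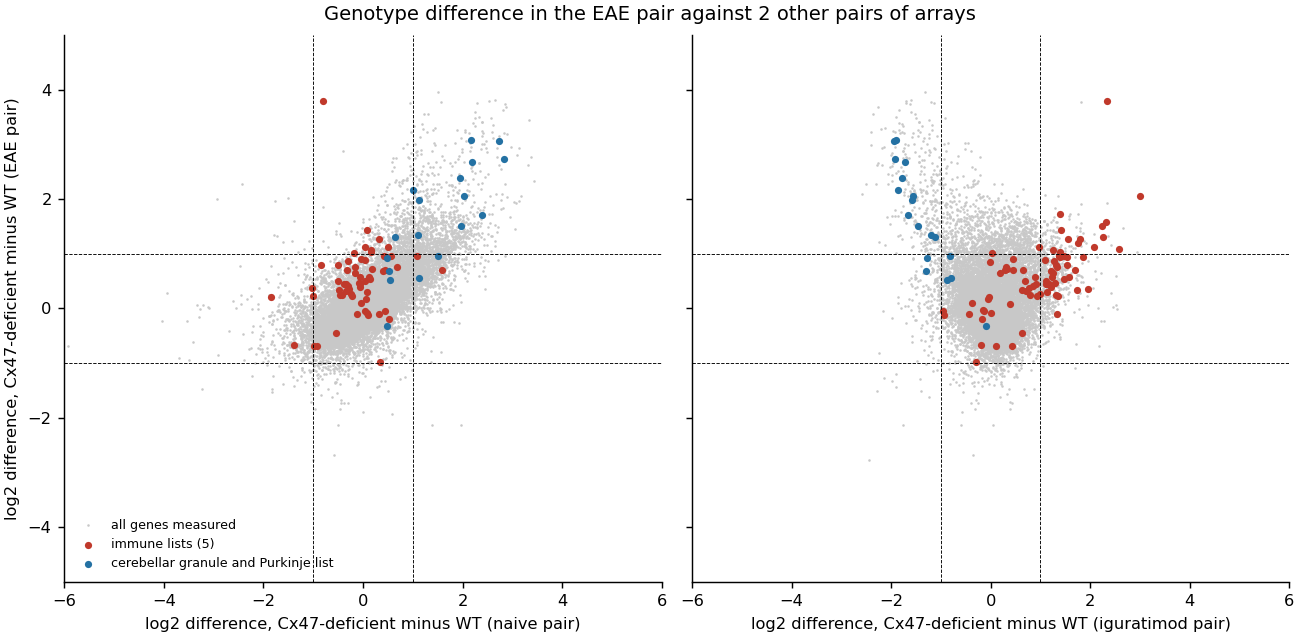
Log2 difference, Cx47-deficient minus WT, in the EAE pair (vertical) against that in the naive pair (left panel) and in the iguratimod pair (right panel), with 5 immune lists in red, the cerebellar list in blue, all other genes in grey and 2-fold marked by dashed lines. Cerebellar genes lie upper right in the left and upper left in the right panel, and immune genes lie near 0 on the naive axis and to the right on the iguratimod axis.

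The largest single differences by the naming rule mostly followed the order of the cerebellar genes across pairs. Beside Chil3, Gabra6 and Cbln3, the higher side held Crtam, an adhesion molecule first known from cytotoxic T cells, at 2.11 on the Cx47-deficient and -0.96 on the WT EAE array (3.07). Its naive levels of 3.15 and 0.69 and iguratimod levels of 0.64 and 2.51 followed Gabra6 and not Cd2. Chil5 (2.98), Cnpy1 (2.95), Bcl2l15 (2.95), the meiotic gene Sycp1 (2.84), the kinase gene Tssk5 (2.68) and the transcription factor Barhl2 (2.67) did likewise, each lower in the iguratimod pair by 1.17 to 2.15. The interleukin receptor chain Il20rb (2.74) is, like Gabra6, Cbln3 and En2, a member of the cerebellar list, so its order is part of that list's result. The class Ib gene H2-M11 (3.01) and Tmem29 (2.67, with probes from -0.34 to 2.67) completed the rule with the hormone gene Oxt. Oxt, which encodes oxytocin, was at -1.19 on the Cx47-deficient and -4.06 on the WT EAE array (2.88), and at -4.21 and 1.07 in chronic EAE.

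Genes dim on the WT EAE array gave the highest lower bounds: Oxct2b was at least 14.2-fold, Dsg1c at least 12.4-fold, Kif12 at least 12.1-fold, Adamtsl3 at least 11.4-fold, Cpb2 at least 10.6-fold and Papln at least 10.1-fold higher. These bounds hold for the main processing only. Under normexp the log2 differences of these genes were smaller, from 1.48 (Cpb2) to 1.93 (Oxct2b). The genes shared 1 profile. Oxct2b, for example, was at -1.16 on the Cx47-deficient and -3.81 on the WT naive array, at -4.11 and -2.51 with iguratimod, and at -0.24 and -0.17 in chronic EAE, and Adamtsl3 at -1.17 and -3.50, -4.55 and -2.65, and -0.22 and 0.02 in the same order. Both Dsg1c (0.67) and Kif12 (-0.23) had another probe without the difference. On the opposite side, Bpifa2 was at least 12.2-fold lower and Olfr655 at least 10.6-fold lower, both above background on the WT EAE array alone of the 8 arrays. Under normexp their log2 differences were -1.81 and -1.74.

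The lower side held Pde5a, the cyclic GMP phosphodiesterase, at -2.64 on the Cx47-deficient and 0.04 on the WT array (-2.69); the naive pair differed by -0.58 and the chronic pair by 0.85. The olfactory marker Omp (-0.83 and 1.30, -2.14) was lower on both naive arrays, at -3.89 and -3.38. Netrin family gene Ntn5 (-1.71), the kinase gene Stk32c (-1.56) and the membrane trafficking gene Vapb (-1.53) were lower in the naive pair too, by -1.04, -1.05 and -1.82. P3h1 (-1.42) had a second probe at 1.12.

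Choroid plexus genes made up a further group on the lower side. Of 10 members, 4 were 2-fold lower, against 0.764% of all genes, and 1 was higher, against 6.56%, with a median of -0.60. The folate receptor Folr1 was at -1.88 on the Cx47-deficient and -0.36 on the WT EAE array (-1.52), the water channel Aqp1 at -1.31 and 0.09 (-1.4), the thyroxine carrier Ttr at 3.59 and 4.92 (-1.33), and the bicarbonate transporter Slc4a5 at -4.08 and -2.80 (-1.28, or -0.68 under normexp). The transcription factor Otx2, which midbrain cells also express, was the exception, at -0.35 and -1.97 (1.63, its 3 probes from 0.45 to 2.28). In chronic EAE the order of Ttr was turned, with 4.18 on the Cx47-deficient and 1.34 on the WT array.

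Regional genes along the body axis were uneven. The 28 Hox genes, which mark the hindbrain and spinal cord in nested order, had a median of -0.45, with 4 of them (14.3%) 2-fold higher, against 6.56% of all genes, and 4 (14.3%) lower, against 0.764%. Higher were the posterior genes Hoxa10 (-0.92 on the Cx47-deficient and -2.96 on the WT array, 2.04) and Hoxc10 (-2.83 and -4.29, 1.46), with Hoxd9 at least 4.05-fold and Hoxd10 dim on the WT array as well. Under normexp Hoxa10 stayed past 2-fold (1.42), while Hoxc10 (0.63), Hoxd9 (0.52) and Hoxd10 (0.35) did not. Lower were Hoxc8 (-3.79 and -1.65, -2.13), Hoxc5 (-2.52 and -1.28, -1.23), Hoxc4 (-0.27 and 0.73, -1.0) and Hoxd1, dim on the Cx47-deficient array. With normexp Hoxc8 stayed past 2-fold (-1.41), while Hoxc5 (-0.93), Hoxc4 (-0.90) and Hoxd1 (-0.42) did not. Hoxc8 was turned in the naive pair, at -1.36 and -3.33, while Hoxc5 and Hoxc4 were lower there by -1.81 and -2.17. Of 9 spinal and motor neuron genes, Slc18a3, the vesicular acetylcholine transporter of motor neurons, was 2-fold lower (-0.51 and 0.61, -1.12). Lhx1, which Purkinje cells also express, was 2-fold higher (0.56 and -1.03, 1.59). Each was 1 of 9 (11.1%), against 0.764% of all genes lower and 6.56% higher. General neuronal genes had a median of -0.38 over 16 members; the neurofilament genes Nefl (-0.71), Nefm (-0.85) and Nefh (-0.84) were lower by less than 2-fold, and Camk2a (3.98 and 5.09, -1.12) was past 2-fold with probes from -1.12 to 1.93. Cerebellar, choroid plexus and Hox genes thus differed between both EAE arrays beside the immune and myelin genes, and their part in those differences was not tested.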

How the data were processed

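Spot intensity values were deposited by the authors as scanner output, 62976 spots an array in 1 channel; per the file headers they came from Agilent Feature Extraction 10.7.1.1, while the submitters' processing notes give 9.5.1.1, a difference not resolved. The processed signal used here is, per the file headers, an intensity after background subtraction. Other columns, flags of 0 or 1, were used as deposited. The authors' table of processed values (linear intensity from 2.96 to 361676, the same median of 50.2 in every column) served as an alternative, with the correction behind it not stated. Extraction with TRIzol and a purification kit is given in the labels' protocols.

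The log2 processed signal was taken relative to percentile 75 of the array over spots that were not controls. Outlier spots (38 on the Cx47-deficient and 54 on the WT EAE array) were left out, spots of a probe were averaged, and probes well above background on at least 1 EAE array were kept. The kept probe with the highest mean stood for the gene. A dim value, one not well above background, was raised to a floor, the weakest signal that the scanner still placed well above background: -5.49 on the Cx47-deficient and -5.26 on the WT array, and its gene is given as at least N-fold. Of 56605 probes, 32994 were named by accession, 10224 by symbol and 520 by synonym in RefSeq's table (GRCm38.p6), and 12867 kept the file's name. Array coordinates are on mm9.

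With 1 array a group no test was run, and genes were counted at 2-fold. Named were the 15 largest differences on each side among genes above background on both arrays that were also 2-fold under normexp and quantile, the 8 largest lower bounds on each side under the same conditions (2 were available on the lower side), up to 4 members with the largest difference and all 2-fold members of each of 47 lists, and Gjb1, Gja1, Gjb6, Gfap, Aqp4 and Il6; members outside the rule are given to show a list's range. Several genes that the rule names, the targeted gene among them, are not reported here. The members and lists were chosen with earlier results of these data known. Alternatives were normexp (limma 3.58.1 in R 4.3.3, offset 50), quantile normalization, median centring, loess (statsmodels 0.14.6, span 0.3), filters on dim probes, the mean of probes, the authors' values, dim values as measured and 3-fold. The steps were tested on simulated data. Columns of values with no sample numbered 0.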

Additional observations from a re-analysis of the deposited data

Results flagged for a closer look

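Several differences of 2-fold or more in the EAE pair stood opposite to a 2-fold difference in another pair. Each rests on 1 array a group, and the difference between pairs was not tested.

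The cerebellar list had a median of 1.61 in the EAE pair and -1.51 in the iguratimod pair. Its members Gabra6, Cbln3, Il20rb and En2 are among the single genes given next. Single genes with the same turn were Gabra6 (3.09 in EAE and -1.90 with iguratimod), Crtam (3.07 and -1.87), Cbln3 (3.06 and -1.94), Chil5 (2.98 and -1.66), Cnpy1 (2.95 and -1.93), Bcl2l15 (2.95 and -2.15), Sycp1 (2.84 and -1.97), Il20rb (2.74 and -1.92), Tssk5 (2.68 and -1.44), En2 (2.68 and -1.71) and Barhl2 (2.67 and -1.17).

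Against the chronic pair, Oxt was at 2.88 in EAE and -5.28 in chronic EAE. The olfactory gene Omp was at -2.14 in EAE and 1.67 in chronic EAE. Choroid plexus genes turned together: Folr1 stood at -1.52 in EAE and 1.97 in chronic EAE, Aqp1 at -1.4 and 2.07, and Ttr at -1.33 and 2.83. Both chronic arrays were on the other slide, and the Y-linked Eif2s3y was not well above background on either, unlike on both EAE arrays. Slide, the difference in Y-linked signal and condition cannot be told apart. Against the naive pair, Hoxc8 was at -2.13 in EAE and 1.97 in naive mice.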

How the results depend on the processing

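Genes 2-fold higher and lower on the Cx47-deficient EAE array numbered 1571 and 183. They were 334 and 36 under normexp, 908 and 486 under quantile normalization, 783 and 745 under median centring, 380 lower after loess, 1022 and 120 with probes above background on both arrays, 896 and 449 with the authors' values, 2401 higher with dim values as measured, and 489 and 26 at 3-fold. The share that was higher, 89.6%, became 65.1% under quantile normalization, 51.2% under median centring, 75.9% after loess, 66.6% with the authors' values and 95% at 3-fold. Median centring moved the median of all genes by -0.34 and no filter by -0.20. Camk2a turned sign under the mean of its probes (0.0728). Of 100 named genes past 2-fold it was the only 1 to turn sign in the alternatives run; 464 of 2020 values of the 227 named genes moved by more than the scanner's error, and 57 of 423 values of the 47 list medians moved.

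No paired analysis was possible because each group had 1 array and the labels carry no replicate numbers. Leaving out a replicate was not possible for the same reason. Signal over background limits dim genes most: 2193 genes were above background on the Cx47-deficient EAE array alone and 267 on the WT EAE array alone.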

Other observations

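Some further gene groups, not described above, differed little in the EAE pair. The 9 genes of IL-6 family signalling lay between -0.17 and 0.21, with Stat3 at -0.17 and Socs3 at 0.06. Among 11 prostaglandin enzyme and MIF genes, Cd74 (0.95), the receptor of MIF, was the highest and none was past 2-fold; Ptgs2 differed by -0.28 and Mif by -0.29. The 14 proliferation genes had a median of -0.01, with Mki67 at 0.08, and the 14 oxidative stress and metallothionein genes a median of -0.11, with Hmox1 at 0.40. The 15 endothelial genes had a median of -0.06 and the 15 fibroblast, pericyte and matrix genes -0.02, none past 2-fold.

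Immediate early genes were lower on balance, with a median of -0.26 over 13 members. Egr1 was at 2.50 on the Cx47-deficient and 3.23 on the WT array (-0.72) and Arc at 2.47 and 3.13 (-0.66), while the injury-induced factor Atf3 was at -1.73 and -2.83 (1.1, or 0.67 under normexp). The 16 glycolysis and lactate genes had a median of -0.29, and the 12 housekeeping genes had a median of -0.18, which was 0.01 after loess. Among growth factors, Ntf3, which encodes neurotrophin 3 and is made by cerebellar granule cells, was 2-fold higher (-1.31 and -2.62, 1.31), and it followed the cerebellar order across pairs, with 1.08 in naive mice and -0.96 with iguratimod.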
